A study of Mus musculus with 4 samples.

Results

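*Krt18*, *Krt19* and *Cldn7*, which serve epithelial cells, and *Vim* and *Twist1*, which serve mesenchymal cells, were followed in 46C mouse embryonic stem cells (mESCs) after *Rhox6* knockdown. These 5 of the 920 genes in the deposited table were selected by name, because the levels of both kinds of genes were already known to differ between these libraries. Their own differences are therefore given as a description, with no test. All 3 epithelial genes were lower in the *Rhox6* shRNA libraries, by 2.33-fold (*Krt18*), 3.29-fold (*Krt19*) and 4.91-fold (*Cldn7*). *Vim* was 2.13-fold and *Twist1* 3.12-fold higher.

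46C is an mESC line that carries a green fluorescent reporter at the *Sox1* locus. The cells were infected with lentivirus carrying a *scramble* control hairpin (2 libraries) or a *Rhox6* shRNA (2 libraries), kept in medium with serum and collected 24 h later, and total RNA was sequenced. Every library thus comes from virus-infected 46C cells, and the groups differ in the hairpin alone as far as the labels say. The hairpins were delivered from a pLKO.1 lentiviral vector according to the study's methods, and which of its *Rhox6* hairpins these libraries carried is not settled. The labels do not say whether LIF was in the medium. The study's methods include LIF in the general medium of 46C cells, without naming these libraries. The labels also do not say whether same-group libraries were grown as separate cultures. The p-values below therefore measure the spread between these libraries, which may be technical. The level of *Rhox6* itself was not analysed here, so the targeted gene does not check the labels. The table lists genes that the authors had already called as changed, and a gene outside it was not analysed here, which does not mean that it was unchanged.

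Epithelial cells are held together as sheets with an apical and a basal side. Keratins form their intermediate filaments, and claudins are the membrane proteins that seal their tight junctions. Mesenchymal cells lack this polarity, carry filaments of vimentin and move as single cells. In gastrulation, wound repair and carcinoma, cells pass from the epithelial to the mesenchymal state, the epithelial-mesenchymal transition (EMT), and Twist1, a basic helix-loop-helix transcription factor, is among the regulators of this change. mESCs in culture grow as compact colonies joined by E-cadherin, and vimentin is a common protein of cultured cells of many kinds.

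In the GENCODE M21 annotation of GRCm38, *Krt18* (ENSMUSG00000023043) lies at chr15:102028180-102032027 on the + strand and encodes a type I keratin of simple epithelia, the usual partner of keratin 8. *Krt19* (ENSMUSG00000020911), a type I keratin that is also made in simple epithelia, lies at chr11:100140810-100148665 on the - strand. *Cldn7* (ENSMUSG00000018569) is at chr11:69964779-69967885 on the + strand. *Vim* (ENSMUSG00000026728) is at chr2:13573927-13582826 and *Twist1* (ENSMUSG00000035799) at chr12:33957671-33959829, both on the + strand. None of the 5 overlaps another annotated gene, and none shares a transcript stretch of 50 bases or more at 95% identity with another gene.

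The DNA at the annotated start sites was read because Zeb1 and the Snail proteins, regulators of EMT, are known to bind the E-box letters CACCTG and *Zeb1* is one of the listed genes described below. The letters were searched on both strands, as CACCTG or CAGGTG, in RefSeq windows of GRCm38.p6 that run from 250 bases before to 50 bases after a start site. Windows were found for 4 of the 5 genes, *Krt19* being the exception. The 214 bases of the *Krt18* window ahead of its annotated transcripts (chr15:102027966-102028179, + strand) are shown with the matching letters in capitals, beside the 250 bases ahead of *Twist1* (chr12:33957421-33957670, + strand), which hold no match.
*Krt18*: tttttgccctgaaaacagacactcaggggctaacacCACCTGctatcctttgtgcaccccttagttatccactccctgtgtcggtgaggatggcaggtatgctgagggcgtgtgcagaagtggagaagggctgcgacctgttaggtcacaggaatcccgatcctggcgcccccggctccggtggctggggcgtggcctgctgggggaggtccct
*Twist1*: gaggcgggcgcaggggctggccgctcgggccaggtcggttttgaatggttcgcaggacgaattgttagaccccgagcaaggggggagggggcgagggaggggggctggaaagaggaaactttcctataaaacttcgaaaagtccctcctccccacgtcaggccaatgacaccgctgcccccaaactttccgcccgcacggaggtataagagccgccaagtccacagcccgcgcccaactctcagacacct

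The match of *Krt18* begins 214 bases before its RefSeq start. *Cldn7* has an earlier start with no match in its window and a later start whose window holds 2 matches, beginning 97 and 57 bases before it. The window of *Vim*, like that of *Twist1*, holds none. The 30 bases around each match of *Cldn7* (chr11:69965312-69965341 and chr11:69965352-69965381, + strand) are shown with the letters in capitals. Both stretches lie inside the annotated span of *Cldn7*, after its earlier start.
*Cldn7*, 97 bases before the start: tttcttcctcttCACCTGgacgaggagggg
*Cldn7*, 57 bases before the start: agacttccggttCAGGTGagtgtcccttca

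These letters are common. They were present in 6640 of 32851 windows (20.2%), and 6098 of 27025 genes (22.6%) had them in at least 1 window. Among windows with a GC content of 50% or more the share was 22.3%. A match is only a run of letters, and a window without it says nothing about whether a factor acts on the gene.

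The levels are normalized signals with 2 decimals, whose unit is not named, so they are compared between groups and never between genes. *Krt18* stood at 15.02 and 16.4 in the *scramble* controls and, after knockdown, at 7.73 and 5.77, which gives 15.7 ± 0.976 against 6.75 ± 1.39 (mean ± SD, n = 2 in each group). The *Rhox6* shRNA libraries were further apart for *Krt18* than for the other epithelial genes, with library 2 the lower. *Krt19* stood at 14.75 and 14.87 against 4.53 and 4.46. The libraries of each group were nearly equal for this keratin, with SDs of 0.0849 and 0.0495.

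*Cldn7* had levels of 12.11 and 13.1 in the controls, and of 2.69 and 2.44 after knockdown. Its ratio of group means, 0.203, was the lowest of the 5 genes. On the scale of log2(level + 1), used below for every difference unless a ratio is named, *Cldn7* was lower by 1.93, *Krt19* by 1.52 and *Krt18* by 1.12. Ordered by this difference from the lowest of the 920 listed genes, *Cldn7* had rank 9, *Krt19* rank 32 and *Krt18* rank 105.

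*Vim* had levels of 80.99 and 93.53 in the controls, and of 195.28 and 177.12 after knockdown. Both knockdown libraries lay above both controls, by a gap wider than that within either group. *Twist1* stood at 1.09 and 0.97 against 3.06 and 3.37. Its levels were low in every library, and the pseudocount of 1 therefore makes its log2 difference, 1.05, smaller than its 3.12-fold ratio, whereas that of *Vim* was 1.09. From the highest difference down, *Vim* had rank 219 and *Twist1* rank 244.

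**Figure D1:**
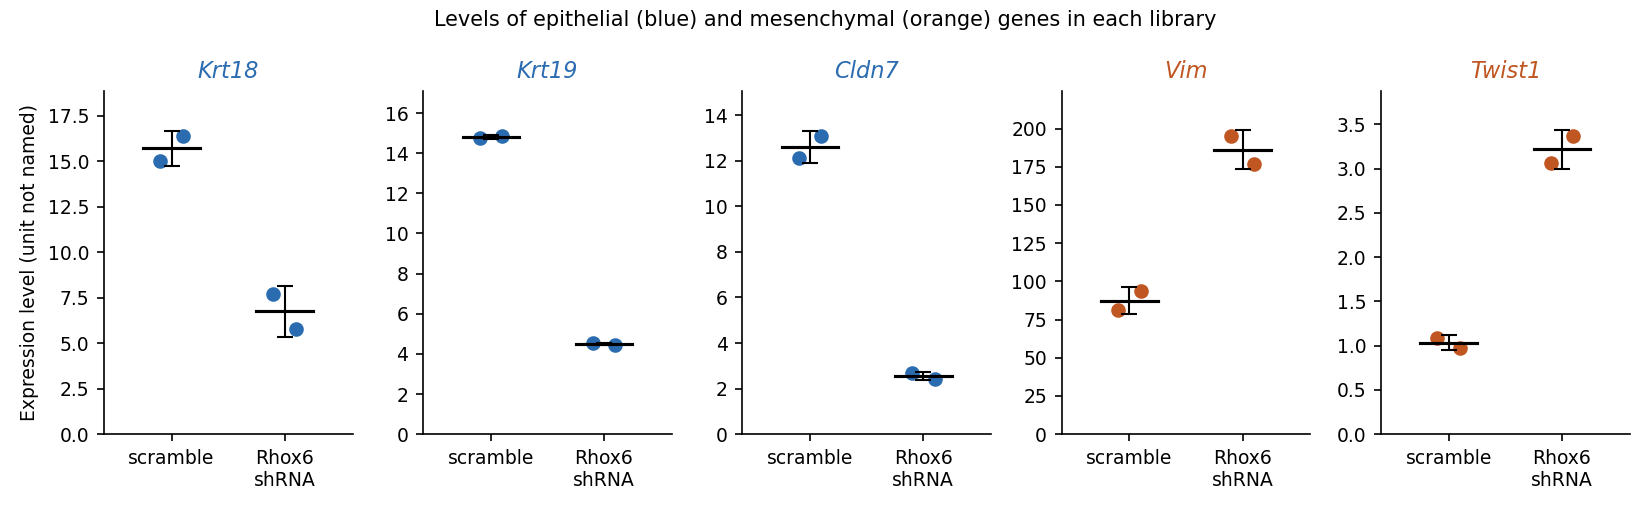
Level of each gene in each library, in the unnamed unit of the table and on axes that start at 0. Points are libraries, horizontal lines are group means and bars are SDs (n = 2). *Krt18*, *Krt19* and *Cldn7* (blue) lie lower in both *Rhox6* shRNA libraries, *Vim* and *Twist1* (orange) higher.

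The groups did not overlap for any of the 5 genes. Such separation is the rule in this table of genes called on the same libraries, where both knockdown libraries lay below both controls for 44.2% of the listed genes and above them for 54.1%. With 2 libraries against 2, the smallest two-sided exact permutation p for any single gene is 0.333. In bulk RNA, fewer cells of a kind and less RNA per cell cannot be told apart.

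Relative to the *scramble* mean, the mean log2(level + 1) of the 3 epithelial genes was -0.04 and 0.04 for the controls, and -1.44 and -1.61 for the knockdown libraries. That of *Vim* and *Twist1* was -0.03 and 0.03 in the controls and 1.08 and 1.06 after knockdown. Between libraries of the same group, *Vim* and *Twist1* differed in opposite directions, so the mean of the pair varied less than either gene. The epithelial mean minus the mesenchymal mean was lower by 2.60 in the *Rhox6* shRNA group, with an SD of 0.0130 in the *scramble* and of 0.103 in the *Rhox6* shRNA group. *Krt18* was the epithelial gene nearest to its control level in both knockdown libraries and *Cldn7* the farthest.

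**Figure D2:**
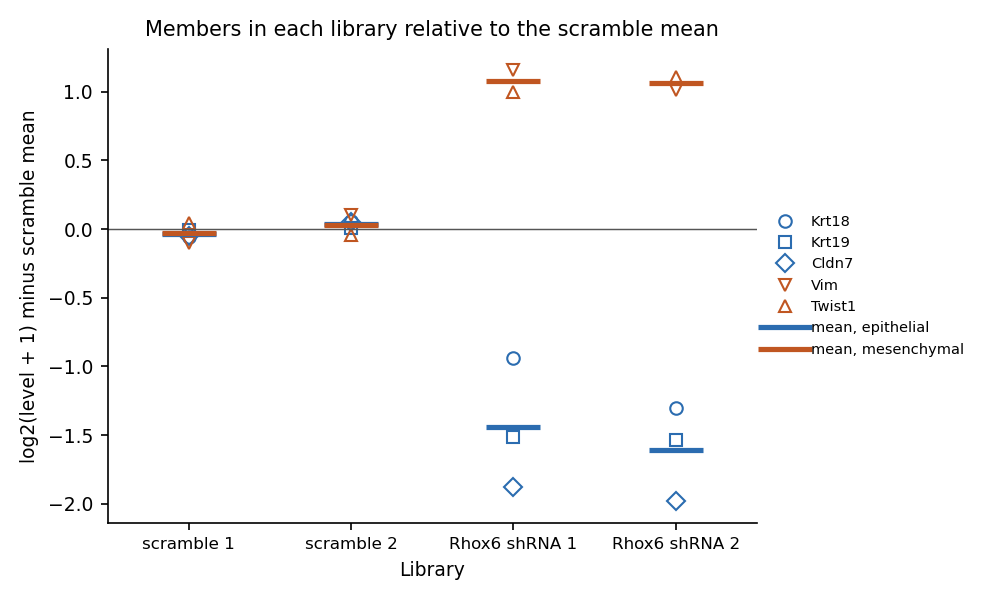
Difference of log2(level + 1) from the *scramble* mean of the same gene, in each library. Open symbols are genes and thick bars are the mean of the 3 epithelial (blue) and the 2 mesenchymal (orange) genes. The epithelial mean lies at -1.44 and -1.61 and the mesenchymal mean at 1.08 and 1.06 after knockdown.

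The ratio of a mesenchymal to an epithelial gene within a library does not depend on how libraries were scaled to each other. The ratio of *Vim* to *Krt18* was 5.02-fold higher after knockdown, the smallest change of the 6 pairs. Over the 4 ways of setting a knockdown against a control library, its log2 change ran from 2.15 to 2.51. The ratio of *Vim* to *Krt19* was 7.04-fold higher and that of *Vim* to *Cldn7* 10.5-fold.

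The ratio of *Twist1* to *Krt18* was 7.34-fold higher, that to *Krt19* 10.3-fold. The pair farthest from its control ratio was *Twist1* with *Cldn7*, at 15.4-fold, with log2 changes from 3.66 to 4.22. No pairing of libraries gave a change in the other direction for any of the 6 pairs.

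Lists of related genes show which neighbours of these 5 were in the table. Their listed genes were tested with limma on log2(level + 1), with Benjamini-Hochberg adjustment over the 920 listed genes and a threshold of 0.05, by which 53.7% of all listed genes were higher and 42.9% lower after knockdown. Because the authors chose the listed genes on the same libraries, these p-values are not independent evidence of a change. Of 125 epithelial genes on the lists other than *Krt18*, *Krt19* and *Cldn7*, 16 were in the table (12.8%). Of these, 15 fell and 1, *Jam2*, rose. Their median difference was -1.10, against a median of 0.56 over all 920 listed genes. Which genes the lists hold decides these counts. Epithelial genes in the table but outside the lists went both ways. *Lad1* was at -1.01 and *Prom2* at -0.76, but *Tgm1* at 1.30 and *Klk10* at 1.49. The share of all annotated genes that were in the table was not computed. Neither this percentage nor the counts of listed genes below can therefore be read as high or low.

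Keratins were represented by *Krt18* and *Krt19* alone, as the other 47 of 49 keratin genes were not listed, *Krt8* included. Claudins form the strands of tight junctions, and 4 of 23 were listed. Besides *Cldn7*, *Cldn6* fell from 84.92 and 79.69 to 44.32 and 40.89 (difference -0.93, SE 0.074, limma adjusted p = 0.000426). *Cldn9* fell from 4.35 and 3.41 to 1.7 and 1.43 (limma adjusted p = 0.00312), and *Cldn3* from 6.0 and 8.86 to 3.67 and 2.98 (limma adjusted p = 0.00688). The 3 other claudins lay close to each other, with differences of -0.92 to -0.95, and the 4.91-fold of *Cldn7* stood beside their 1.93-fold to 2.48-fold.

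Of 19 tight junction and apical polarity genes 6 were listed, and 5 of them fell. *Crb3*, the small Crumbs protein of the apical membrane, fell 3.36-fold, from 20.42 and 22.31 to 7.32 and 5.41 (limma adjusted p = 0.000648). *Cgn*, which encodes the junction plaque protein cingulin, fell from 23.65 and 23.07 to 9.16 and 9.64 (limma adjusted p = 0.000292). *Tjp3*, the scaffold ZO-3, fell from 11.3 and 11.2 to 4.75 and 3.51.

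*Marveld3*, a tight junction membrane protein, stood at 3.33 and 2.6 against 0.84 and 0.77, a 3.68-fold fall. *Patj*, a scaffold of the Crumbs complex, fell 2.38-fold. *Jam2*, a junctional adhesion molecule of the immunoglobulin family, went the other way, from 53.9 and 52.39 to 145.82 and 150.23 (difference 1.46, SE 0.055, limma adjusted p = 0.000148). Its 2.79-fold rise left no overlap with the controls.

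All 6 listed genes of 19 epithelial regulators fell, with a median difference of -1.18. *Esrp1* and *Esrp2* encode splicing factors that keep epithelial isoforms. *Esrp1* fell from 14.19 and 14.93 to 5.94 and 5.53 (limma adjusted p = 0.000469). *Esrp2* fell from 7.97 and 4.55 to 1.81 and 2.06 (limma adjusted p = 0.00528), with the controls well apart.

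*Rab25*, a small GTPase of epithelial vesicle recycling, fell 2.89-fold, from 13.03 and 11.7 to 4.16 and 4.41 (limma adjusted p = 0.00047). *Ap1m2*, the epithelial subunit of a clathrin adaptor, fell 2.29-fold, from 35.71 and 39.28 to 14.92 and 17.86. *Ovol1*, a zinc finger factor of epithelial differentiation, fell 3.80-fold between low levels, 1.45 and 1.74 against 0.55 and 0.29.

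*Mal2*, a protein of apical transport that is also among the regulators, stood at 0.44 and 0.8 against 0.18 and 0.09. *Lamb3*, a chain of the basement membrane laminin of epithelia, stood at 0.86 and 0.55 against 0.35 and 0.31. *Lamb3* was the only listed gene of 18 for epithelial adhesion and desmosomes, and *Cdh1*, which encodes E-cadherin, was not listed. The calls of this pair were lost in some fits without a library, which leave a single library in a group. The differences stayed negative in these fits. Without *Rhox6* shRNA library 2 they were -0.45 for *Mal2* and -0.33 for *Lamb3*, beside -0.51 and -0.35 with all libraries. That of *Lamb3* was -0.22 without *scramble* library 1 and -0.37 without *Rhox6* shRNA library 1.

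On the mesenchymal side, 61 genes other than *Vim* and *Twist1* were on the lists and 8 were in the table (13.1%), of which 7 rose and 1 fell, with a median difference of 0.98. Among the 7 are *Ncam1* and *Nefl*, which serve neurons, and without this pair 5 rose and 1 fell. These counts depend on which genes the lists hold. Matrix genes in the table but outside the lists went both ways, with *Eln* at -0.96 and *Col6a6* at -1.10, but *Vcan* at 1.17 and *Fbn2* at 0.84. Among 15 transcription factors of EMT, *Zeb1*, a zinc finger repressor of epithelial genes, rose from 3.32 and 2.8 to 8.53 and 6.41 (difference 1.05, SE 0.17, limma adjusted p = 0.00259). *Msx2*, a homeobox factor of mesenchyme, rose from 0.45 and 0.38 to 1.59 and 1.42 (limma adjusted p = 0.00145). With *Twist1*, these were the 3 listed of the 15, and the Snail genes were not listed. *Prrx2*, a homeobox factor of mesenchyme that is in the table but outside the lists, went the other way, with a difference of -0.94.

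Adhesion and matrix genes made up 5 of the 8. *Tgfbi*, a matrix protein induced by TGF-β, rose 3.46-fold, from 3.59 and 3.42 to 12.16 and 12.07 (limma adjusted p = 0.000239). *Cdh2*, which encodes N-cadherin, the cadherin of mesenchymal and neural cells, rose 2.99-fold, from 1.38 and 1.29 to 3.85 and 4.14 (limma adjusted p = 0.00101). *Ncam1*, a neural cell adhesion molecule, rose 3.10-fold, from 2.59 and 2.97 to 8.52 and 8.72.

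*Fbn1*, the microfibril protein fibrillin-1, rose from 1.06 and 1.0 to 1.99 and 2.43. *Col6a2*, a chain of collagen VI, fell from 0.91 and 0.68 to 0.38 and 0.36 (difference -0.39, SE 0.10, limma adjusted p = 0.0152). Without *Rhox6* shRNA library 1 or 2, which leaves a single knockdown library, its difference was -0.40 or -0.38 and the call was lost. *Vim* was the only listed gene of 13 mesenchymal filament and contractile genes. Among 15 intermediate filament genes other than keratins, *Nefl*, the light neurofilament chain of neurons, was the other listed gene and rose from 3.63 and 4.32 to 8.05 and 8.7.

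**Figure D3:**
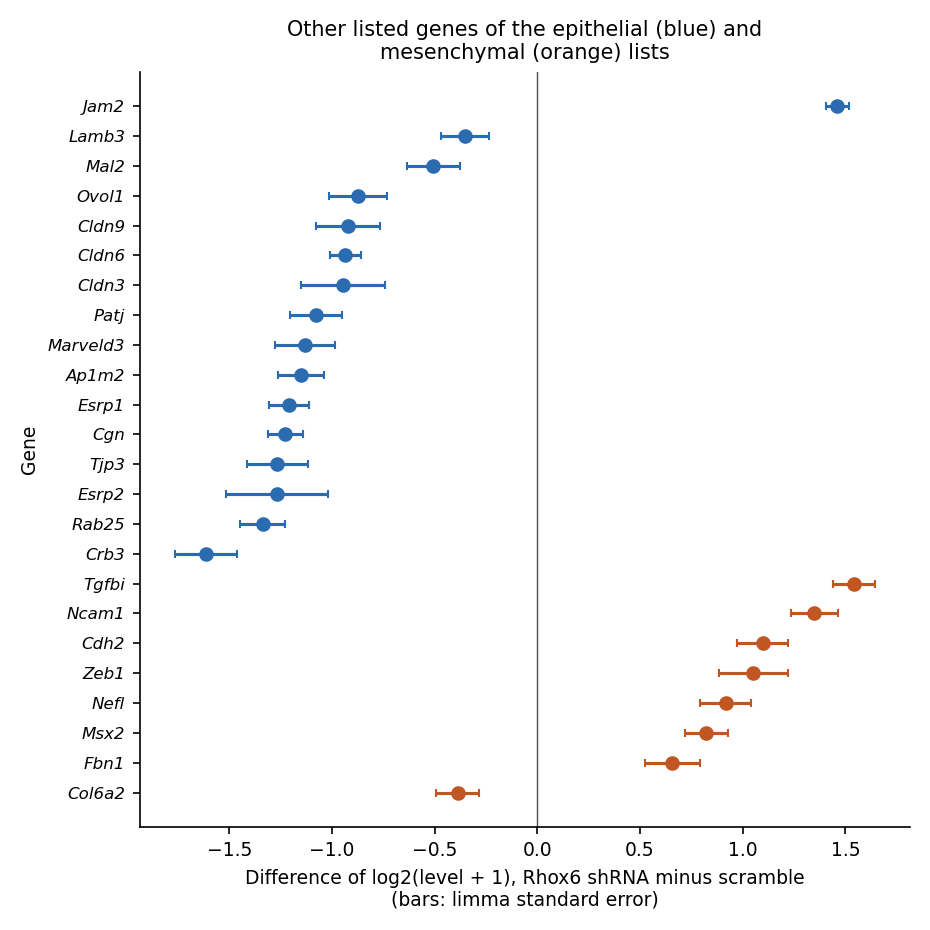
Difference of log2(level + 1), *Rhox6* shRNA minus *scramble*, for the 16 listed epithelial (blue) and 8 listed mesenchymal (orange) genes other than the 5 described first. Points are differences and bars are limma standard errors. Blue points lie below 0 except *Jam2*, and orange points above 0 except *Col6a2*.

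Some of these genes share sequence with others, and whether counting used strand is not stated in the sources used here. *Cgn* shares 1716 bases at 98.7% identity with *BC021767*. *Fbn1*, *Ovol1* and *Esrp2* share 2442, 692 and 219 bases with the opposite strand of *Gm9913*, *Gm31166* and *Nfatc3*. *Nefl* shares 1108 bases with the opposite strand of *Nefm*. *Ncam1* shares 153 bases with the opposite strand of *Gm11149* and shorter stretches with others, 912 genes in all, *Msx2* shares up to 114 bases with 1169 genes, and *Zeb1* shares 57 bases with *Gm32338*. The levels of these listed genes could hold reads of their partners.

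The E-box letters shown above for *Krt18* and *Cldn7* were looked up in the same windows of the listed neighbours. Only 9 of the 16 epithelial and 4 of the 8 mesenchymal genes had a window, and the lists were chosen with earlier results known. As a property of either list the search is therefore void, and the counts that follow are description without a test. Among the genes with a window, 8 of 9 epithelial genes had at least 1 match, *Cgn* being the exception, and 0 of 4 mesenchymal genes (*Col6a2*, *Fbn1*, *Msx2* and *Tgfbi*) had any, beside 22.6% of all genes. Counted by window, 10 of 14 epithelial and 0 of 5 mesenchymal windows had a match, beside 20.2% of all windows, since a gene with more than 1 window has more chances of a match. The looser E-box CANNTG, where N is any base, was also searched. It was in 13 of 14 epithelial and 2 of 5 mesenchymal windows, beside 72.3% of all windows. The windows of *Crb3* overlap (chr17:57061951-57062250 and chr17:57061981-57062280), so the same 4 matches count in both. *Crb3*, the listed epithelial neighbour with the most negative log2 difference, had 4 matches in its first window. Of these, 3 begin 118, 63 and 7 bases before the start, and the last begins at base 26 of the transcript, counted from 1 at the start. The *Rab25* stretch holds 2 matches, beginning 64 and 53 bases before its start. The stretches, with the letters in capitals, are from chr17:57062071-57062100 and chr17:57062126-57062155 (+ strand) for *Crb3* and from chr3:88548326-88548355 (- strand) for *Rab25*.
*Crb3*, 118 bases before the start: cccctgtgcttaCACCTGctcatttccgcc
*Crb3*, 63 bases before the start: gggttcccgttaCAGGTGctctggcggcgc
*Rab25*, 64 bases before the start: catcgctccaccCACCTGtgcccCAGGTGc

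**Figure D4:**
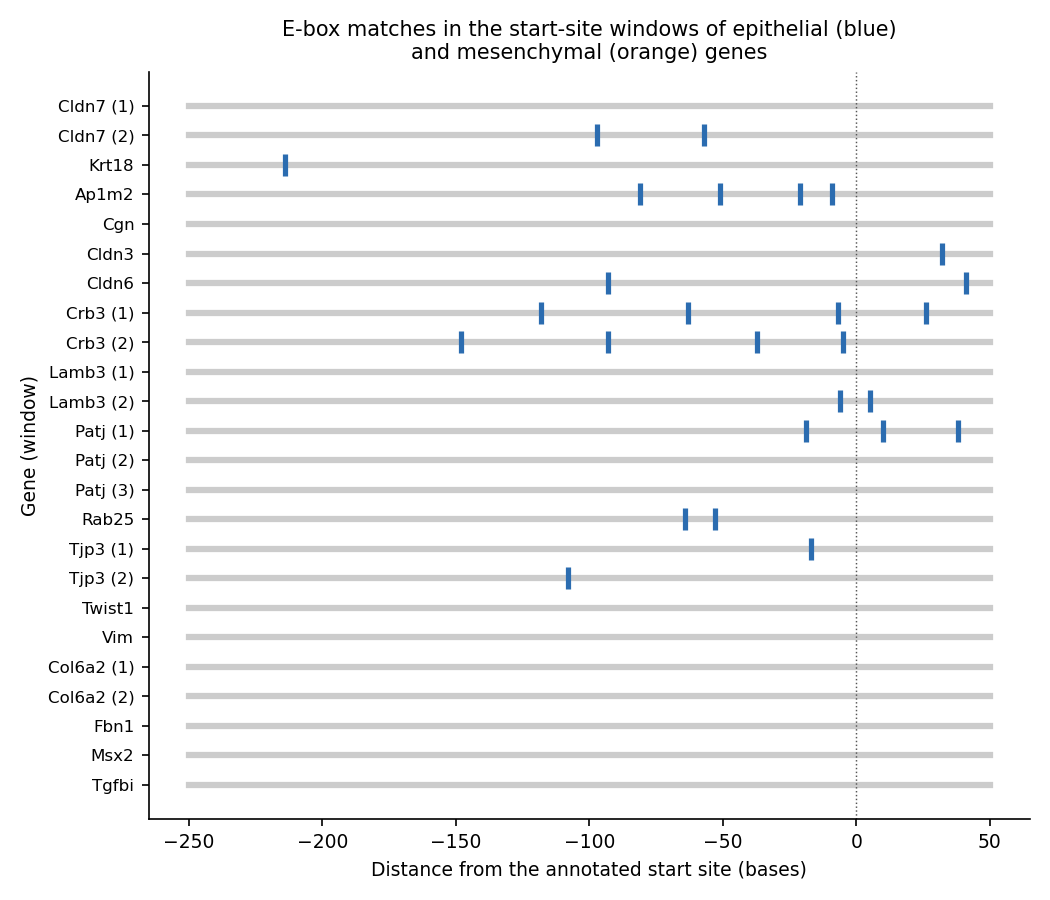
Matches to the E-box letters in each window, by distance from the annotated start site in bases. Grey lines are windows, numbered where a gene has more than 1, and coloured ticks are matches. *Krt18* has 1 match and the later start of *Cldn7* has 2, while the windows of *Vim* and *Twist1* have 0.

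*Krt18* and *Krt19* are also markers of early embryonic cell types that can arise in mESC cultures, and *Vim* and *Twist1* are markers of fibroblasts. Beyond the keratins, 3 of 17 other primitive and visceral endoderm markers were listed, and all fell. *Gata6*, a transcription factor of primitive endoderm, fell from 2.03 and 2.61 to 0.91 and 0.83. *Dab2*, an endocytic adaptor, fell from 17.71 and 18.82 to 4.43 and 4.99, and *Cubn*, an endocytic receptor of visceral endoderm, from 8.11 and 8.18 to 1.3 and 1.39 (limma adjusted p = 0.000207). Their summed level, in which *Dab2* weighs most, was 27.85 and 29.61 in the controls against 6.64 and 7.21 after knockdown. They moved in the direction of the keratins, and their part in the keratin result was not tested.

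Of 13 trophectoderm markers other than *Krt18*, only *Gata3* was listed, at 0.02 and 0.0 in the controls against 0.92 and 0.63 after knockdown. It was thus higher where *Krt18* was lower. Of the 13 fibroblast markers, *Vim* and *Twist1* were the only listed ones, and the collagen genes among them were not analysed here. Of 8 mESC markers, 2 were listed and both rose. *Nanog* rose from 125.72 and 126.54 to 314.24 and 331.47 and *Klf4* from 18.28 and 16.51 to 39.57 and 40.95. By the study's own qRT-PCR, most candidate genes changed as its sequencing had shown. *Nanog* was among the exceptions and *Klf4* was not.

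Markers of neural progenitors and neurons were added as a list after the rises of *Ncam1* and *Nefl* had been seen. Of 16 such genes 4 were listed, all of them transcription factors of neural progenitors, and all 4 rose. *Sox21* rose from 1.54 and 1.44 to 11.17 and 9.81, *Pax6* from 0.21 and 0.44 to 1.87 and 2.66. *Sox3* rose from 1.29 and 1.53 to 4.58 and 3.59, and *Sox1* from 0.48 and 0.6 to 1.7 and 1.82. Their summed level, in which *Sox21* weighs most after knockdown, was 3.52 and 4.01 in the controls against 19.32 and 17.88 after knockdown. They moved in the direction of *Vim*, *Cdh2*, *Ncam1* and *Nefl*, and their part in these differences was not tested. No gene of neurons on this list was in the table. Listed genes of neurons outside it went both ways, with *Elavl3* at -0.95 and *Syp* at -1.05, but *Gap43* at 1.32 and *Nrcam* at 1.05.

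The listed genes whose 4 levels followed each of the 5 most closely were found by the distance between values of log2(level + 1) after removing each gene's mean. Nearest to *Krt18* were *Mpp3*, *Col6a6* and *Card19* (distances 0.085 to 0.097), and nearest to *Krt19* were *2610528J11Rik*, *Espn* and *Zfp36* (0.080 to 0.094). *Cubn*, *Bst2* and *Ddit3* were nearest to *Cldn7*, at 0.133 to 0.153. *Gm7854*, *Cd38* and *Chst3* were nearest to *Vim* (0.031 to 0.059), and *Gm26686*, *Nr5a2* and *Btbd19* to *Twist1* (0.029 to 0.050). With 4 libraries in 2 groups, a like group difference is enough to bring a pair of genes close on this measure.

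On the chromosome, only some of the protein-coding genes closest to the 5 were listed, and how often this holds around other genes was not computed. *Krt8*, 23698 bases from *Krt18*, and *Krt15*, 4882 bases from *Krt19*, were not. *Tns2*, an adhesion protein gene 68386 bases from *Krt18*, stood at 7.43 and 8.99 against 2.32 and 2.81, and *Ybx2*, 23174 bases from *Cldn7*, at 25.36 and 23.32 against 13.74 and 16.21. *Cubn* lies 82114 bases from *Vim* and was lower where *Vim* was higher. *St8sia6*, 68195 bases from *Vim* on the other side, stood at 0.48 and 0.37 against 1.62 and 1.06.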

How the data were processed

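RNA was measured in 4 libraries of 46C mESCs, 2 with the *scramble* and 2 with the *Rhox6* hairpin, grouped by their labels. The authors deposited 1 table of 920 genes with a normalized signal per gene and library, called the level here, in a unit that is not named. Bowtie 0.12.2 and mm9 are named in the submitters' processing notes. The counting tool and gene annotation behind the levels were not given in the sources used here. The depth per library is unknown, as low values showed no steps of whole reads, so no count test was possible. The authors' columns of fold change, p-value and adjusted p-value in the deposited table were not used.

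Levels were transformed as log2(level + 1). Groups were compared with limma 3.58.1 (R 4.3.3), with a variance trend, no block and Benjamini-Hochberg adjustment over all 920 genes. The script was tested on simulated data. Python 3.11.15 with pandas 2.3.3 and matplotlib 3.10.9 was used elsewhere. The 5 genes and all lists (9 lists of related genes and 4 of cell type markers, with a further list of neural markers) were chosen with earlier results of these data known. Named are the 5 genes, every listed gene of the lists (1 withheld gene was taken off them and is not reported here) and, for each of the 5, its 3 nearest listed genes. The chromosomal neighbours are named in addition. The deposited table gives no coordinates. Those printed are from GENCODE M21 and RefSeq on GRCm38, and none was converted from mm9. Alternatives were other pseudocounts, a filter on the mean level, equal sums or medians of the libraries, no variance trend, a replicate block, a log2 limit and leaving out each library.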

Additional observations from a re-analysis of the deposited data

How the results depend on the processing

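The 5 genes kept their direction under every alternative run for them. With a pseudocount of 0.1 or 0.01, the difference of the epithelial and mesenchymal means was -3.05 or -3.11 in place of -2.60, and *Twist1* was at 1.55 or 1.63, *Cldn7* at -2.25 or -2.29. Leaving out each library in turn gave -2.67 to -2.52. Scaling the libraries to equal sums of the listed genes shifted the median of all listed genes by -0.12, with *Krt18* then at -1.40, *Krt19* at -1.80, *Cldn7* at -2.19, *Vim* at 0.78 and *Twist1* at 0.86. With a further limit of 1 on the size of the log2 difference, 283 listed genes were higher and 157 lower (494 and 395 without it), 9 of the epithelial neighbours were lower (15 without it), and 4 mesenchymal neighbours were higher and 0 lower (7 and 1 without it). The fallen mesenchymal neighbour, *Col6a2*, was also not called with a mean level of at least 1 required in either group, which leaves it untested (0 lower), and leaving out each library gave 0 to 1. Same-numbered libraries did not deviate together (r = -0.04 across 920 genes, which are not independent). The labels state no pairing, and this single correlation cannot exclude a culture or batch shared by same-numbered libraries. With a replicate block 494 listed genes were higher and 402 lower. Limits: groups of 2, unknown depth and unit, and a table of genes already called on these libraries.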
